A study of Mus musculus with 18 samples.

Results

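The genes described are 10 of the 56876 genes in the deposited table, chosen because they are used to tell the subsets of dendritic cells apart: Zbtb46, Batf3, Cadm1, Ly75, Id2, Irf4, Esam, Siglech, Tcf4 and Dnase1l3. They were chosen with earlier results of these data known, were found by gene symbol, and each symbol had a single row. The series is RNA-seq of spleen cells from Balb/c females, comparing mice that carried orthotopic mammary tumours with tumour-free mice. The tumours grew from 4T1, a mouse mammary carcinoma line that models triple-negative disease. These cells were implanted on day 0, antibody to G-CSF, antibody to PD-1 or control IgG was injected into the peritoneum at 10 mg/kg on days 18, 21 and 24, and spleens were collected on day 29. The 18 libraries form 6 groups of 3, namely T_GC, T_P and T_I from tumour-bearing mice and N_GC, N_P and N_I, whose treatment label is WT and which are taken here as tumour-free. The letters I, P and GC correspond to the initials of the 3 injected antibodies, but no label spells a code out, so the groups keep their codes here. The treatment tag calls every T library anti-PD-1 treated and every N library WT, and the cell type tag calls all 18 tumour-bearing; the titles were followed, and no library was moved on the basis of its values. All values are TPM, a share of all transcripts in a library after correction for gene length, and every mean ± SD has n = 3.

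Dendritic cells take up antigen and present it to T cells, and in the spleen they fall into conventional and plasmacytoid kinds. Conventional dendritic cells express the transcription factor ZBTB46 and comprise the cDC1 subset, which depends on BATF3, IRF8 and ID2 and cross-presents antigen to CD8 T cells, and the cDC2 subset, which depends in part on IRF4 and includes a Notch2-dependent, ESAM-positive population. Plasmacytoid dendritic cells release type I interferon, carry the lectin Siglec-H and are maintained by E2-2, the E protein encoded by Tcf4, whose action ID2 opposes. Several of these genes are also used by other spleen cells, such as Irf4 by plasma cells, Tcf4 by B cells, Id2 by natural killer cells, Esam by endothelium and Dnase1l3 by macrophages.

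E proteins such as E2-2 bind the E-box, and ID2 pairs with E proteins and keeps them off DNA. The annotated promoter windows of 3 members are therefore shown with each E-box (CANNTG, a palindrome in its fixed letters) in capitals. They are Siglech, the plasmacytoid marker, Zbtb46, the conventional dendritic cell factor, and Ly75, the only member that was higher in tumour-bearing spleens. The windows are RefSeq sequences of build GRCm38.p6, 5′ to 3′ on the strand of the gene. Each runs from 250 bases before to 50 bases after the annotated start. Windows of 6 of the 10 members were searched. Those of Tcf4, Esam, Cadm1 and Dnase1l3 were not searched, so nothing is known here of their motifs.
Siglech, chr7:55767934-55768233, plus strand: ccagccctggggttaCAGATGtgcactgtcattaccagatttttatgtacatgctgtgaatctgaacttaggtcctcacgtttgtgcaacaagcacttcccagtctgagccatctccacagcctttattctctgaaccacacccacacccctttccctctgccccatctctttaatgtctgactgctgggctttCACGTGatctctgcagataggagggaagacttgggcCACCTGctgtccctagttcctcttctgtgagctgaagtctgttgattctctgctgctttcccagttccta
Zbtb46, chr2:181424339-181424638, minus strand: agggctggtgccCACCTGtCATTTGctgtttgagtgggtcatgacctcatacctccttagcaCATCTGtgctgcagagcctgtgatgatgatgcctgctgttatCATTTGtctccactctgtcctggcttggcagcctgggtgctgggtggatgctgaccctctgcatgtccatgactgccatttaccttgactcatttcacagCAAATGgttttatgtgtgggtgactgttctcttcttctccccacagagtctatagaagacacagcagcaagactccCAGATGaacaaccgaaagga
Ly75, chr2:60383224-60383523, minus strand: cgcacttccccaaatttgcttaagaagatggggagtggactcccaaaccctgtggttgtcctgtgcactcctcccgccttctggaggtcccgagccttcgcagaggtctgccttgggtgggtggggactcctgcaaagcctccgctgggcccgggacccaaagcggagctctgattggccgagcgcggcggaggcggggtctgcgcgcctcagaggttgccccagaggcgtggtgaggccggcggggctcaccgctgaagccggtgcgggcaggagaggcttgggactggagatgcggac
The Siglech window holds 3 E-boxes, the Zbtb46 window 6 and the Ly75 window 0. Of the member windows searched but not shown, that of Batf3 holds 2, that of Id2 1 and that of Irf4 1. In the Zbtb46 window the letters just before the annotated start, ttctccccacag, resemble the end of an intron. Its last E-box holds an ATG that opens a reading frame to the end of the window. That annotated start may therefore lie inside the gene, and the matches in this window may not be promoter features. Of all 32851 promoter windows of this length, 72.3% hold at least 1. The AP-1 motif TGANTCA, a site of BATF-JUN dimers, occurs once in the Zbtb46 window, beginning 61 bases before the start and overlapping none of its E-boxes, the nearest of which begins 46 bases before the start. It is found in 7.81% of all windows. The ETS-IRF composite, GGAA then any 2 bases then GAAA (2.72% of windows), and the interferon-stimulated response motif, GAAA then any 2 bases then GAAA (3.44%), which can overlap each other, occur in none of the 6 members' windows. Both strands were searched; a match describes these letters and is not evidence of binding.

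Since TPM retain no read numbers, the depth behind each library cannot be given and is unknown. The 20 genes of a neutrophil list took 19.4% to 21.1% of all TPM in T_P and T_I libraries, 3.81% to 6.16% in T_GC and 0.0604% to 0.733% in N libraries. TPM are shares, so very abundant genes lower the rest. The median log2 fold change of all tested genes was −0.45 for T_I over N_I, −0.41 for T_P over N_P, −0.09 for T_GC over N_GC, 0.38 for T_GC over T_I and 0.39 for T_GC over T_P. After median-of-ratios scaling, which divides each library by the median ratio of its genes to their means, these medians were −0.07, −0.06, −0.01, 0.02 and 0.04. Changes of the members are therefore given beside the median of all genes, and their values under that scaling follow. Fold changes called log2 are on the log2(TPM + 1) scale, which understates the change of weakly expressed genes, and a gene is called at an adjusted p below 0.05 in limma with Benjamini-Hochberg adjustment over 16635 tested genes. In these bulk samples, fewer cells of a type and less RNA per cell cannot be told apart. The labels do not say whether the libraries of a group come from separate animals, so p-values measure only the spread between these samples. Spleen lymphocyte markers were present in all groups, with Cd79a of the B cell receptor at 209.6 ± 92.8 TPM in T_I and 916 ± 103 TPM in N_I and Trac, the T cell receptor alpha constant gene, at 50.9 ± 3.52 TPM in T_I and 303 ± 66.7 TPM in N_I.

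All 10 genes passed the filter of 1 TPM in 3 libraries. Esam did so in only 9 libraries, all from T_GC or N groups, and it would have been left out had it been low everywhere. Its calls, and its place in the counts of members called, rest on that selection. In N_I spleens the level per transcript length ran from Id2 at 64.5 ± 8.64 TPM through Irf4 (41.1 ± 2.53), Tcf4 (36.5 ± 4.41), Cadm1 (25.8 ± 9.57), Dnase1l3 (22.7 ± 3.76), Siglech (16.6 ± 3.06), Ly75 (13.1 ± 1.38) and Batf3 (12.2 ± 2.85) to Zbtb46 (3.63 ± 1.001) and Esam (1.76 ± 0.509).

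Most of the 10 members were lower in tumour-bearing spleens under codes I and P, and most were near the tumour-free level under code GC. In T_I against N_I, 8 of the 10 members fell and 1, Ly75, rose, where 52.4% of all tested genes fell and 17.4% rose, 69.8% in all. In T_P against N_P, 9 fell and 1 rose, against 50.3% and 18.9% of all genes, 69.2% in all. In T_GC against N_GC, 0 of the 10 fell and 1 rose, where 18.9% of all genes fell and 14.3% rose, 33.3% in all; Ly75 was the 1 member with an unadjusted p below 0.05, which 43.3% of all genes had. The median log2 fold change of the members was −1.47, −1.12 and 0.06 in these comparisons. With median-of-ratios scaling 8 members fell and 1 rose in T_I, 6 fell and 1 rose in T_P, and 0 fell and 1 rose in T_GC. Among all genes that scaling changed the split to 5019 higher and 5423 lower in T_I against N_I, from 2893 and 8717, to 5162 and 5397 in T_P against N_P, from 3138 and 8367, and to 2962 and 2300 in T_GC against N_GC, from 2383 and 3149.

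**Figure D1:**
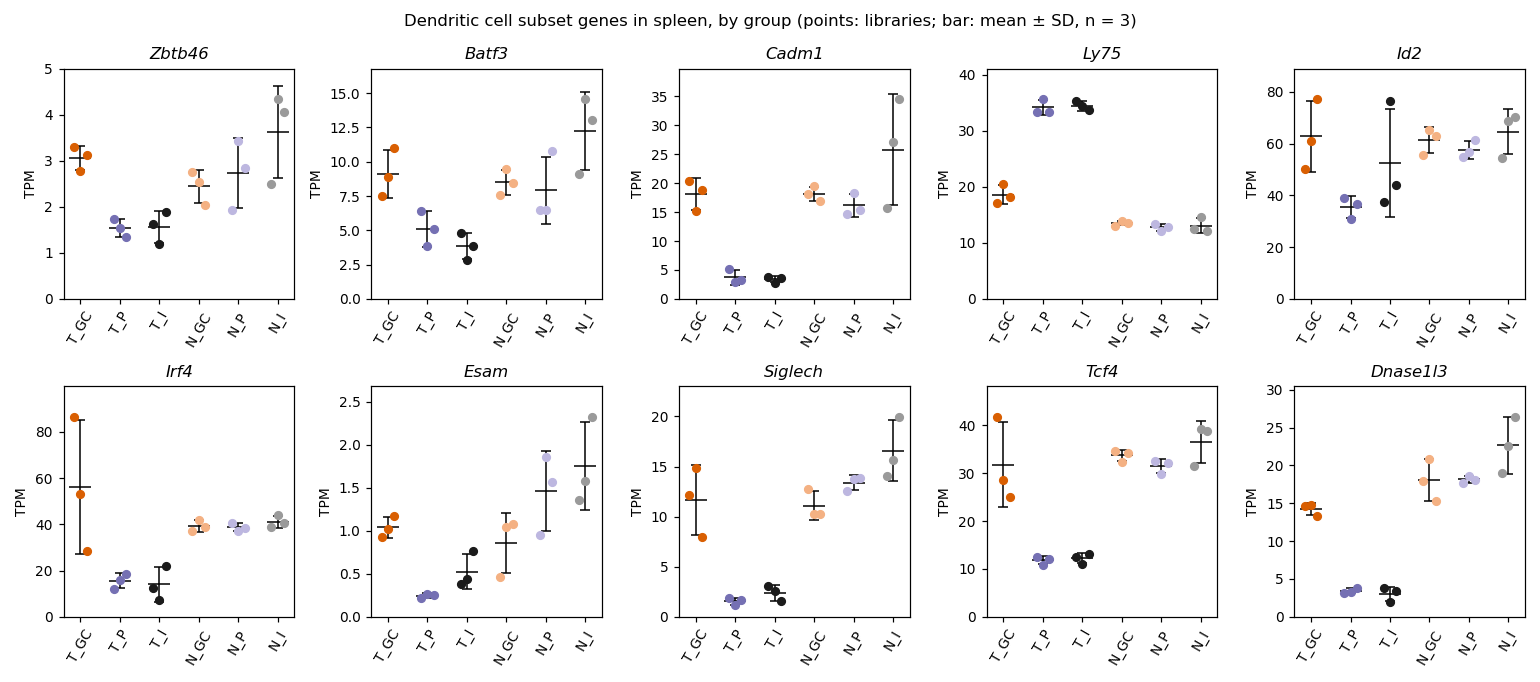
TPM of the 10 genes in each library, by group, on linear axes from 0, with bars for the mean ± SD of 3 libraries. Siglech, Cadm1, Tcf4 and Dnase1l3 form a low band in T_P and T_I, Ly75 a high band in the same libraries, and Irf4 and Tcf4 are spread widely in T_GC.

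Siglech, the sialic acid-binding lectin that marks plasmacytoid dendritic cells, had 12.13, 14.84 and 8.0 TPM in T_GC, 1.87, 1.18 and 1.63 TPM in T_P and 3.04, 2.62 and 1.53 TPM in T_I. In tumour-free spleens it had 12.76, 10.28 and 10.26 TPM in N_GC, 12.54, 13.75 and 13.85 TPM in N_P and 14.09, 15.65 and 19.99 TPM in N_I. Every T_P and T_I library was below every other library, and T_GC libraries overlapped N_GC. The gene fell 6.92-fold in mean TPM in T_I against N_I (log2 fold change −2.39, SE 0.21, adjusted p = 1.04e-07) and 8.58-fold in T_P against N_P (−2.50, SE 0.21, adjusted p = 5.93e-08). T_GC and N_GC differed by 0.03 log2 units, with a 95% interval of −0.41 to 0.48 (adjusted p = 0.922). With median-of-ratios scaling the fall was −2.02 in T_I and −2.18 in T_P.

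Tcf4, which encodes the plasmacytoid lineage factor E2-2, had 41.85, 28.53 and 24.97 TPM in T_GC, 12.54, 10.91 and 12.04 TPM in T_P and 12.52, 11.13 and 13.19 TPM in T_I. The tumour-free libraries lay between 29.77 and 39.33 TPM. T_P and T_I libraries were thus the lowest, while T_GC libraries fell on either side of N_GC, which had 34.61, 32.44 and 34.13 TPM. Tcf4 fell 2.97-fold in T_I against N_I (log2 −1.49, SE 0.14, adjusted p = 2.71e-07) and 2.66-fold in T_P against N_P (−1.34, SE 0.14, adjusted p = 8.13e-07). In T_GC against N_GC it differed by −0.12 (95% interval −0.42 to 0.19, adjusted p = 0.566), and a call depended on a single library: without T_GC replicate 10, which has the highest value, it was lower by −0.33 (adjusted p = 0.0251, with 0.0251 to 0.879 over the alternatives). The ratio of Siglech to Tcf4 TPM within a library ran from 0.290 to 0.520 in T_GC, 0.108 to 0.149 in T_P, 0.116 to 0.243 in T_I, 0.301 to 0.369 in N_GC, 0.386 to 0.462 in N_P and 0.398 to 0.515 in N_I. It was lower in every T_P and T_I library than in any other library, and a ratio within a library does not depend on the total.

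Of the genes tied to cDC1, Cadm1 changed most. Cadm1, an adhesion molecule used as a surface marker of cDC1, had 20.43, 15.10 and 18.74 TPM in T_GC, 5.25, 2.89 and 3.18 TPM in T_P and 3.80, 2.77 and 3.54 TPM in T_I. Tumour-free libraries had 18.09, 19.43 and 16.92 TPM in N_GC, 14.74, 18.34 and 15.37 TPM in N_P and 15.62, 27.19 and 34.60 TPM in N_I. No T_P or T_I library reached the others, and the N_I libraries were the most widely spread. It fell 7.66-fold in T_I against N_I (log2 −2.56, SE 0.23, adjusted p = 1.73e-07) and 4.28-fold in T_P against N_P (−1.87, SE 0.23, adjusted p = 4.47e-06), and differed by −0.01 in T_GC against N_GC (95% interval −0.51 to 0.49, adjusted p = 0.977).

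Batf3, the transcription factor on which cDC1 development depends, fell less. It had 7.50, 8.90 and 10.99 TPM in T_GC, 6.43, 3.84 and 5.07 TPM in T_P and 4.81, 2.87 and 3.85 TPM in T_I, against 7.60, 9.44 and 8.43 TPM in N_GC, 6.49, 6.48 and 10.76 TPM in N_P and 9.07, 14.60 and 13.02 TPM in N_I. The highest T_P library was just below the lowest N_P library, whereas T_I and N_I were well apart. Batf3 fell in T_I against N_I (log2 −1.45, SE 0.23, adjusted p = 4.22e-05). Its call in T_P against N_P (−0.53, SE 0.23, adjusted p = 0.0479) was lost under median-of-ratios scaling (−0.16), without the neutrophil list genes (−0.26), without a filter, in a fit of only those libraries, and without any single one of T_GC replicate 21, T_P replicates 39 and 43, T_I replicate 27, N_GC replicates 11, 36 and 94, N_P replicate 38 or N_I replicate 96. Omission of N_P replicate 38 gave −0.31 (adjusted p = 0.236, with 0.0247 to 0.587 over the alternatives). Cadm1 to Batf3, as a ratio of TPM within a library, was 1.70 to 2.72 in T_GC, 0.627 to 0.816 in T_P, 0.790 to 0.965 in T_I, 2.01 to 2.38 in N_GC, 1.43 to 2.83 in N_P and 1.72 to 2.66 in N_I. Cadm1 thus exceeded Batf3 in every T_GC and N library and stood below it in every T_P and T_I library.

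Ly75, which encodes the endocytic receptor DEC-205 of cDC1, moved the other way. It had 17.09, 20.43 and 18.22 TPM in T_GC, 33.38, 35.74 and 33.40 TPM in T_P and 35.32, 34.35 and 33.65 TPM in T_I, against 12.10 to 14.67 TPM over the tumour-free libraries. The T_P and T_I libraries, the T_GC libraries and the N libraries formed bands that did not overlap. Ly75 rose 2.63-fold in T_I against N_I (log2 1.33, SE 0.08, adjusted p = 1.80e-09), 2.68-fold in T_P against N_P (1.35, SE 0.08, adjusted p = 1.31e-09) and 1.38-fold in T_GC against N_GC (0.43, SE 0.08, adjusted p = 0.000708). With median-of-ratios scaling the rises were 1.78, 1.77 and 0.51. The neutrophil list moved in the same direction, with all 20 genes higher in each of these comparisons and summed levels of 38079 to 61583 TPM in T_GC, 194472 to 210536 in T_P, 201079 to 209165 in T_I and 604 to 7333 in N libraries; its part in the Ly75 result was not tested. Relative to Zbtb46 in the same library, Ly75 stood at a ratio of 5.19 to 7.35 in T_GC, 19.3 to 24.9 in T_P, 17.8 to 28.9 in T_I and 2.98 to 6.94 in N libraries.

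Id2, the inhibitor of E proteins required by cDC1 and by natural killer cells, was called lower in T_P against N_P and not in T_I against N_I, and the difference between these changes was −0.33 (adjusted p = 0.895). It had 50.10, 61.13 and 77.37 TPM in T_GC, 39.03, 30.94 and 36.69 TPM in T_P and 37.24, 76.26 and 43.88 TPM in T_I, against 55.68, 65.13 and 63.07 TPM in N_GC, 54.73, 56.56 and 61.35 TPM in N_P and 54.61, 68.59 and 70.39 TPM in N_I. T_I replicate 12 was above every N_I library, and the other two T_I libraries were below them. In T_I against N_I Id2 differed by −0.35 (95% interval −0.80 to 0.10, adjusted p = 0.147), and without T_I replicate 12 it fell by 0.65 (adjusted p = 0.00278). Over the alternatives the adjusted p ran from 0.00278 to 0.893, and the estimate was 0.10 under median-of-ratios scaling. In T_P against N_P it fell (−0.68, SE 0.21, adjusted p = 0.00930), a call lost under median-of-ratios scaling (−0.26, adjusted p = 0.349) and without the neutrophil list genes (−0.37, adjusted p = 0.139), with 0.000724 to 0.349 over the alternatives. The natural killer and innate lymphoid list summed to 67.1 to 72.1 TPM in T_I, and replicate 12 was at 69.8. The part of these cells in the Id2 values was not tested.

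The cDC2-linked genes also fell, at very different levels. Irf4, a transcription factor of cDC2, plasma cells and activated lymphocytes, had 86.61, 53.24 and 28.55 TPM in T_GC, 12.18, 16.11 and 18.43 TPM in T_P and 12.53, 7.42 and 22.06 TPM in T_I. All 9 tumour-free libraries lay between 36.95 and 43.94 TPM, so that 2 T_GC libraries were above the whole tumour-free range and 1 below it. The gene fell in T_I against N_I (log2 −1.61, SE 0.34, adjusted p = 0.000654) and in T_P against N_P (−1.28, SE 0.34, adjusted p = 0.00374). T_GC against N_GC gave 0.37 (95% interval −0.36 to 1.10, adjusted p = 0.432), which was −0.01 without T_GC replicate 10 and 0.78 without T_GC replicate 37. Tcf4 had the same order over the 3 T_GC libraries, as did the summed B cell list at 3680, 3089 and 2350 TPM, whereas the summed plasma cell list was 851, 812 and 902 TPM; the part of these cells in the spread was not tested.

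Esam, an adhesion molecule of the Notch2-dependent cDC2 population and of endothelium, was near the limit of the table. It had 0.93, 1.02 and 1.17 TPM in T_GC, 0.22, 0.27 and 0.25 TPM in T_P and 0.38, 0.44 and 0.76 TPM in T_I, against 0.46, 1.05 and 1.08 TPM in N_GC, 0.95, 1.86 and 1.57 TPM in N_P and 1.36, 1.58 and 2.33 TPM in N_I. No T_P or T_I library reached the N_P or N_I libraries. Esam fell in T_I against N_I (log2 −0.85, SE 0.19, adjusted p = 0.000901) and in T_P against N_P (−0.96, SE 0.19, adjusted p = 0.000304), with values of 0.15 in T_GC against N_GC (95% interval −0.25 to 0.55, adjusted p = 0.578). It passed the filter only through T_GC and N libraries, so these tests were of a gene kept by its high groups. Over the alternatives that kept it, no filter among them, limma's adjusted p for the falls ran from 0.000522 to 0.00784 and from 8.74e-05 to 0.00231. The endothelial list, as a sum led by Pecam1 and Stab2, moved alongside Esam. It summed to 91.8 to 112 TPM in T_GC, 33.3 to 37.5 in T_P, 34.2 to 42.6 in T_I and 101 to 129 in N libraries, and its part was not tested. Its most abundant genes, the junction protein gene Pecam1 and the scavenger receptor gene Stab2, fell by 1.96 and 2.35 log2 units in T_I against N_I (adjusted p = 9.27e-10 and 2.26e-09). Of the 10 genes of that list 5 passed the filter, of which 3 fell and 2 rose in T_I against N_I. Of all tested genes 52.4% fell and 17.4% rose. Those of the list that rose were Tie1 (2.47 ± 0.488 TPM in T_I, 0.44 ± 0.175 in N_I) and Egfl7 (6.21 ± 0.808 and 2.48 ± 1.2).

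Zbtb46, the transcription factor common to conventional dendritic cells, had 3.29, 2.78 and 3.12 TPM in T_GC, 1.73, 1.53 and 1.34 TPM in T_P and 1.62, 1.19 and 1.89 TPM in T_I. Tumour-free libraries had 2.76, 2.53 and 2.05 TPM in N_GC, 1.92, 3.44 and 2.85 TPM in N_P and 2.49, 4.35 and 4.06 TPM in N_I. All 6 T_P and T_I libraries were below all the others. The gap was narrow, between 1.89 TPM in a T_I library and 1.92 TPM in an N_P library, and T_GC libraries were just above those of N_GC. Zbtb46 fell 2.32-fold in T_I against N_I (log2 −0.84, SE 0.18, adjusted p = 0.000872). In T_P against N_P it fell (−0.54, SE 0.18, adjusted p = 0.0163), but the call was lost under median-of-ratios scaling (−0.26, adjusted p = 0.237), without the neutrophil list genes (−0.34), without T_P replicate 43 (−0.49) and without N_P replicate 29 (−0.41), with 0.00426 to 0.237 over the alternatives. T_GC against N_GC differed by 0.24 (95% interval −0.15 to 0.63, adjusted p = 0.337).

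Dnase1l3, a secreted nuclease of dendritic cells and macrophages that degrades chromatin, had 14.61, 14.83 and 13.29 TPM in T_GC, 3.16, 3.34 and 3.81 TPM in T_P and 3.74, 2.0 and 3.45 TPM in T_I. It had 18.01, 20.84 and 15.35 TPM in N_GC, 17.69, 18.66 and 18.14 TPM in N_P and 18.96, 22.62 and 26.47 TPM in N_I. T_GC formed a band of its own between T_P with T_I and the tumour-free libraries. The gene fell 7.40-fold in T_I against N_I (log2 −2.56, SE 0.16, adjusted p = 3.11e-09) and 5.29-fold in T_P against N_P (−2.11, SE 0.16, adjusted p = 2.02e-08). In T_GC against N_GC the difference of −0.31 did not pass (95% interval −0.66 to 0.03, adjusted p = 0.146). The libraries of these groups did not overlap, and how many of all genes had such a gap was not counted. The macrophage list moved alongside, at 1318 to 2323 TPM in T_GC, 458 to 550 in T_P, 487 to 579 in T_I and 1226 to 2757 in N libraries, and its part was not tested. Where 52.4% of all tested genes fell in T_I against N_I, all 12 genes of this list did, among them Hmox1 (−2.53, adjusted p = 3.85e-08) and the complement gene C1qa (−1.82, adjusted p = 9.89e-06).

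**Figure D2:**
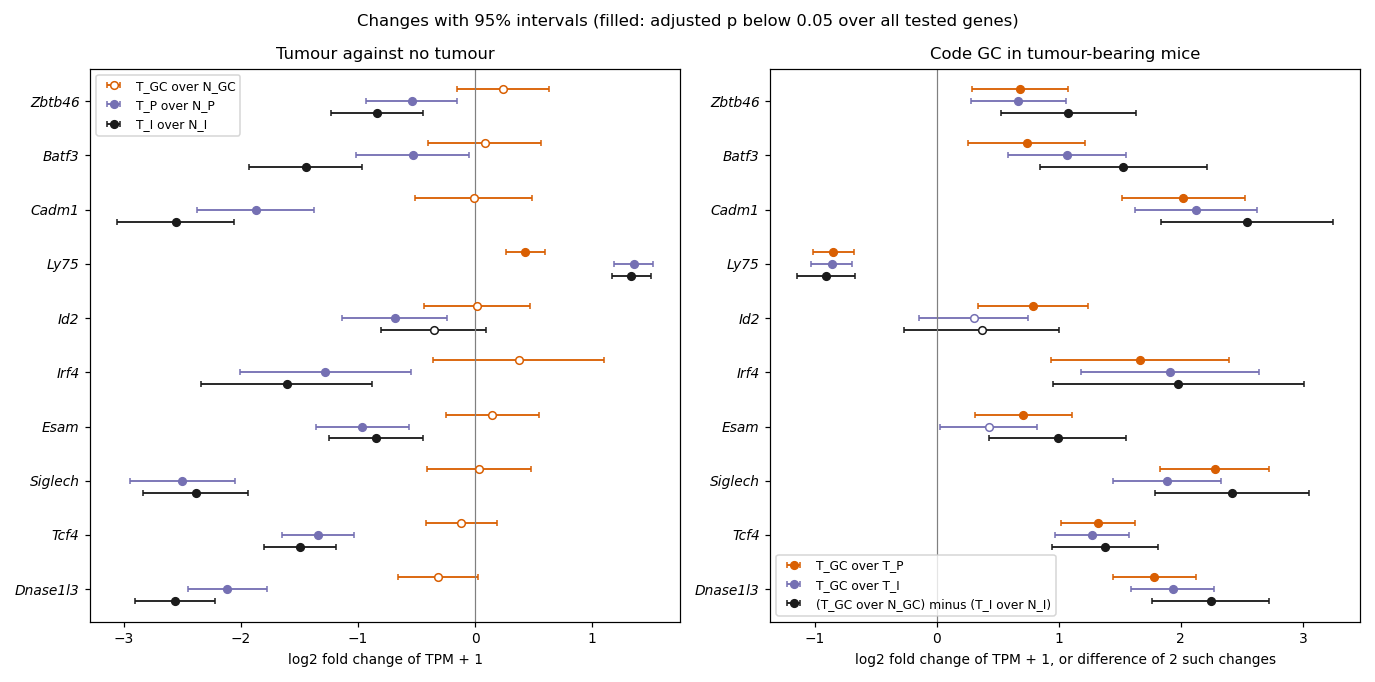
Log2 fold changes of the 10 genes with 95% intervals from limma, for tumour against no tumour under each code (left) and for code GC in tumour-bearing mice (right, with the interaction in black); filled points passed an adjusted p of 0.05. Intervals of T_GC over N_GC include 0 for all genes but Ly75, while those of T_I over N_I exclude 0 for all but Id2.

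Among tumour-bearing spleens, code GC went with higher levels of most of these genes. In T_GC against T_I, 7 of the 10 members rose and 1 fell, where 48.7% of all tested genes rose and 12.7% fell, 61.5% in all. In T_GC against T_P, 9 rose and 1 fell, against 49.1% and 12.7% of all genes, 61.8% in all. The comparisons share the T_GC libraries. With median-of-ratios scaling 6 members rose and 1 fell in each, and all genes split into 4188 higher and 4417 lower against T_I, from 8109 and 2115, and into 4328 and 4370 against T_P, from 8173 and 2111.

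Cadm1 rose 5.37-fold in T_GC against T_I (log2 2.12, SE 0.23, adjusted p = 2.66e-06) and 4.79-fold against T_P (2.02, adjusted p = 3.94e-06). Siglech rose 4.86-fold against T_I (1.89, SE 0.21, adjusted p = 2.70e-06) and 7.47-fold against T_P (2.28, adjusted p = 4.49e-07). Dnase1l3 rose 4.65-fold against T_I (1.93, SE 0.16, adjusted p = 1.80e-07) and 4.14-fold against T_P (1.78, adjusted p = 3.70e-07). These had the largest log2 changes of the 10 members against T_P. Irf4 rose by 1.91 against T_I (SE 0.34, adjusted p = 0.000212) and 1.67 against T_P (adjusted p = 0.000650), Tcf4 by 1.27 (SE 0.14, adjusted p = 3.14e-06) and 1.32 (adjusted p = 2.10e-06), and Batf3 by 1.07 (SE 0.23, adjusted p = 0.000855) and 0.74 (adjusted p = 0.0108). Zbtb46 rose by 0.67 against T_I (SE 0.18, adjusted p = 0.00551) and 0.68 against T_P (adjusted p = 0.00481).

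Some of these rises were not called under other settings. Under median-of-ratios scaling Zbtb46 was 0.39 against T_I (adjusted p = 0.0898, with 0.00236 to 0.0898 over the alternatives) and 0.40 against T_P (adjusted p = 0.0814, with 0.00203 to 0.0814), and Batf3 against T_P was 0.37 (adjusted p = 0.212, with 0.00614 to 0.212). Batf3 against T_P was also not called without T_P replicate 39 (0.58) or without the neutrophil list genes (0.53). Esam rose against T_P (0.71, SE 0.19, adjusted p = 0.00412, with 0.000779 to 0.0167 over the alternatives), and its difference from T_I was 0.42 (adjusted p = 0.0602), called without T_I replicate 27 (0.53, adjusted p = 0.0397, with 0.0397 to 0.271 over the alternatives), without N_GC replicate 11, N_P replicate 17 or N_I replicate 96, and with a pseudocount of 0.1 (0.91). Id2 rose against T_P (0.79, SE 0.21, adjusted p = 0.00450) but was not called after median-of-ratios scaling (0.37, adjusted p = 0.194), and its adjusted p ran from 0.000335 to 0.194 over the alternatives. Against T_I it differed by 0.30 (adjusted p = 0.226), and was called without T_I replicate 12 (0.60, adjusted p = 0.00616, with 0.00616 to 0.851). Ly75 fell in T_GC against T_I (−0.86, SE 0.08, adjusted p = 4.60e-07) and against T_P (−0.85, SE 0.08, adjusted p = 5.15e-07), and did so under median-of-ratios scaling too (−1.27 and −1.26).

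Codes P and I gave no called difference in any of the 10 genes. In T_P against T_I, 0 members were called by limma, against 0.012% of all genes, and 1, Id2, had an unadjusted p below 0.05 (log2 −0.49, adjusted p = 0.790), as did 6.07% of all genes. Siglech, at −0.39, had an interval of −0.83 to 0.06, and Ly75, at −0.01, an interval of −0.18 to 0.16. In N_P against N_I 0 members were called, where 0.571% of all genes were (0.313% higher and 0.258% lower), and Batf3 (−0.58, adjusted p = 0.271) and Cadm1 (−0.58, adjusted p = 0.288) had an unadjusted p below 0.05, as did 13.5% of all genes. Without N_I replicate 18, Cadm1 was called lower (−0.89, adjusted p = 0.0380, with 0.0380 to 0.652 over the alternatives).

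Tumour-free spleens under code GC also gave no call. In N_GC against N_I 0 of the 10 members were called by limma, against 2.75% of all genes (0.451% higher and 2.3% lower). Esam (−0.57, adjusted p = 0.136), Siglech (−0.53, adjusted p = 0.223) and Zbtb46 (−0.41, adjusted p = 0.298) had an unadjusted p below 0.05, as did 15.8% of all genes, and the median of the 10 was −0.36 with 0.04 for all genes. In N_GC against N_P 0 were called, where 1.17% of all genes were, and 1, Esam, had an unadjusted p below 0.05 (−0.40, adjusted p = 0.347), as did 14.3% of all genes.

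The change with the tumour differed between code GC and code I in most of the genes. The interaction, which is the log2 fold change of T_GC over N_GC minus that of T_I over N_I, was called in 9 of the 10 members, 8 higher and 1 lower, where 33.4% of all genes were higher and 6.93% lower, 40.4% in all. With median-of-ratios scaling the members' counts were 8 and 1, and those of all genes 2585 and 2832, from 5564 and 1153. It was 2.54 for Cadm1 (SE 0.33, adjusted p = 4.85e-05), 2.42 for Siglech (SE 0.29, adjusted p = 2.97e-05), 2.24 for Dnase1l3 (SE 0.23, adjusted p = 7.25e-06) and −0.91 for Ly75 (SE 0.11, adjusted p = 3.15e-05). Id2 gave 0.37 (adjusted p = 0.344), called without T_I replicate 12 (0.67, adjusted p = 0.0274, with 0.0274 to 0.998 over the alternatives). The same interaction for code P was called in 0 members by limma, against 0.018% of all genes, and Batf3 had an unadjusted p below 0.05 (0.91, adjusted p = 0.543), as did 6.89% of all genes.

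**Figure D3:**
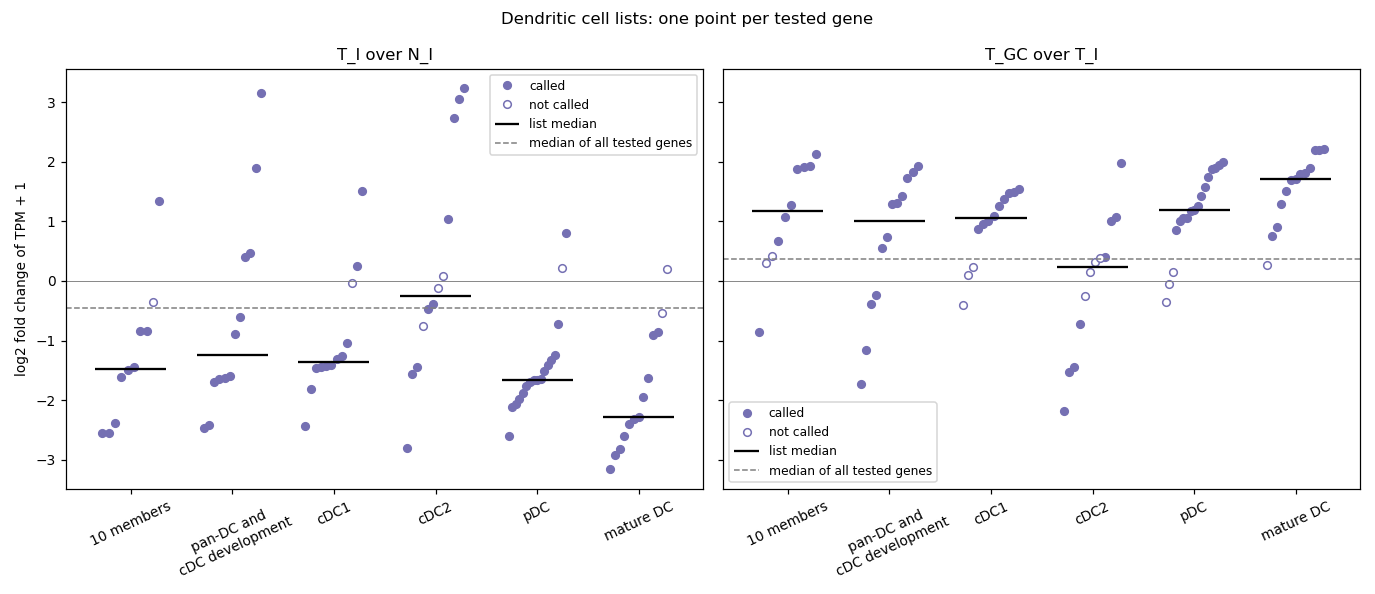
Log2 fold changes of the tested genes of the 10 members and of 5 further dendritic cell lists in T_I over N_I (left) and T_GC over T_I (right); filled points were called, black bars are list medians and the dashed line is the median of all tested genes. The cDC2 list spreads to both sides of 0, and the pDC and mature lists lie mostly on a single side.

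Further genes of the same subsets were counted in T_I against N_I, where 52.4% of all tested genes fell. The lists were chosen with earlier results of these data known, so their counts are not independent of those results. Of 12 cDC1 genes 9 fell and 2 rose, with a median of −1.36 beside −0.45 for all genes. Irf8, a factor that cDC1 and plasmacytoid cells require, was 62.1 ± 6.54 TPM in T_I and 219.5 ± 5.05 TPM in N_I (log2 −1.81, adjusted p = 1.99e-10). Cd36, a scavenger receptor, fell by 2.44 (adjusted p = 5.51e-08). The genes that rose were Cd24a (1.50, adjusted p = 2.85e-06), a glycoprotein also abundant in neutrophils and B cells, and the lysosomal thioesterase gene Ppt1 (0.25, adjusted p = 0.0260).

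Plasmacytoid genes fell in 15 cases and rose in 1 among 17 tested of 18 listed, with a median of −1.66. Pacsin1, an endocytic adaptor, was 2.57 ± 0.549 TPM in T_I and 20.8 ± 3.59 TPM in N_I (−2.61, adjusted p = 6.30e-10). Tlr9, the receptor of unmethylated DNA, which B cells share, fell by 2.12 (adjusted p = 4.46e-09). Mctp2 was the gene that rose (0.81, adjusted p = 8.92e-05). Ptcra, of the pre-T cell receptor, did not pass the filter and was listed at 0 in every N_GC and N_P library.

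Genes of mature dendritic cells fell in 11 of 13 tested cases and rose in 0 (14 listed), with a median of −2.28. Cd83, a maturation marker shared with B cells, was 17.15 ± 1.0 TPM in T_I and 94.65 ± 4.25 TPM in N_I (−2.40, adjusted p = 1.93e-11), and Ccr7, the lymph node homing receptor shared with naive T cells, fell by 2.93 (adjusted p = 9.39e-11). Of 12 pan-dendritic and developmental genes 8 fell and 4 rose. The invariant chain gene Cd74 (−2.42, adjusted p = 3.00e-10) and H2-DMb2 of class II peptide loading (−2.47, adjusted p = 6.20e-10) fell. All 10 genes of the B cell list also fell, with a median of −2.48, where 52.4% of all tested genes fell. The part of B cells in the falls of Cd74, H2-DMb2 and Irf8 was not tested. Nfil3 (3.15, adjusted p = 1.32e-10) and Spi1, which encodes PU.1 (1.90, adjusted p = 2.33e-10), both also expressed by granulocytes, rose.

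The cDC2 list was divided, with 5 genes lower and 4 higher of 12 and a median of −0.25. Cd4 (−2.80, adjusted p = 8.49e-10) and Ltb (−1.45, adjusted p = 1.14e-09), which T cells also express, fell. The lectin genes Clec12a (2.74, adjusted p = 1.60e-10) and Mgl2 (3.06, adjusted p = 7.27e-10) rose, and Clec12a, found on granulocytes as well, was 165 ± 10.3 TPM in T_I and 24.1 ± 3.85 TPM in N_I. Under code P the counts against N_P were 8 lower and 3 higher for cDC1, 14 and 1 for plasmacytoid, 11 and 1 for mature, 8 and 3 for pan-dendritic and 4 and 5 for cDC2 genes, where 50.3% of all genes were lower and 18.9% higher. Against N_GC, T_GC had 0 lower and 3 higher for cDC1, 2 and 2 for plasmacytoid, 6 and 1 for mature, 3 and 2 for pan-dendritic and 2 and 7 for cDC2 genes, where 18.9% of all genes were lower and 14.3% higher.

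In T_GC against T_I, 9 of 12 cDC1 genes, 14 of 17 plasmacytoid genes, 12 of 13 mature genes and 8 of 12 pan-dendritic genes rose, where 48.7% of all genes did. The list medians were 1.05, 1.18, 1.71 and 1.02, beside 0.38 for all genes. Irf8 was 184 ± 14.7 TPM in T_GC and 62.1 ± 6.54 TPM in T_I (1.55, adjusted p = 7.21e-09), and Itgae, the integrin chain CD103, rose by 1.38 (adjusted p = 2.96e-06). Tlr9 (1.89, adjusted p = 5.92e-08) and Pacsin1 (1.74, adjusted p = 1.22e-07) rose, as did Cd83 (1.89, adjusted p = 1.71e-09), Ccr7 (2.21, adjusted p = 9.99e-09), Cd74 (1.93, adjusted p = 1.69e-08) and H2-DMb2 (1.73, adjusted p = 7.69e-08). Spi1 (−1.16, adjusted p = 1.02e-07) and Nfil3 (−1.72, adjusted p = 1.52e-07) fell. The cDC2 list had 4 higher and 4 lower of 12, with Cd4 (1.97, adjusted p = 9.99e-08) and Ltb (1.004, adjusted p = 1.53e-07) higher and Mgl2 (−2.18, adjusted p = 7.97e-08) and Clec12a (−1.52, adjusted p = 1.55e-07) lower.

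**Figure D4:**
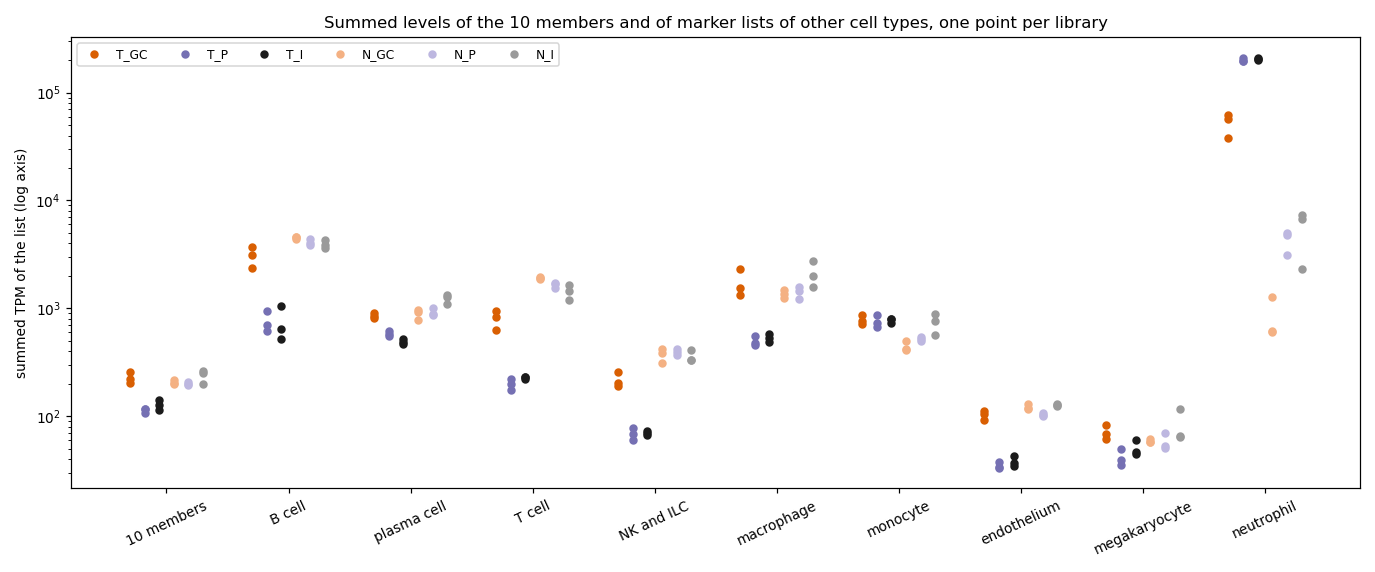
Summed TPM of the 10 genes and of marker lists of other cell types in each library, on a log axis, coloured by group. B cell, T cell, natural killer, macrophage and endothelial sums are lowest in T_P and T_I, the monocyte sums of T groups overlap those of N_I, and the neutrophil sums are highest in T_P and T_I.

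Markers of other spleen cells moved in the same comparisons. Of all tested genes, 52.4% fell and 17.4% rose in T_I against N_I, and 48.7% rose in T_GC against T_I. The 10 members summed to 204 to 255 TPM in T_GC, 107 to 116 in T_P, 115 to 141 in T_I and 195 to 262 in N libraries. The B cell list summed to 2350 to 3680 TPM in T_GC, 620 to 953 in T_P, 516 to 1041 in T_I and 3640 to 4567 in N libraries, and the T cell list to 634 to 939 TPM in T_GC, 176 to 220 in T_P, 219 to 232 in T_I and 1205 to 1968 in N libraries. All 10 genes of each list fell in T_I against N_I and all 10 rose in T_GC against T_I, with Cd79b (−2.25, adjusted p = 6.91e-07) and Lck (−2.86, adjusted p = 4.42e-11) among the most abundant. The natural killer and innate lymphoid list, led by Gzma and Il7r, summed to 190.5 to 259 TPM in T_GC, 59.6 to 77.8 in T_P, 67.1 to 72.1 in T_I and 309 to 420 in N libraries, and 8 of its 10 genes fell and 1 rose in T_I. The plasma cell list, led by Jchain (−1.76, adjusted p = 1.08e-08) and Mzb1 (−1.80, adjusted p = 6.47e-07), summed to 812 to 902 TPM in T_GC, 558 to 621 in T_P, 465 to 518 in T_I and 782 to 1330 in N libraries, with 6 of 8 genes lower and 1 higher in T_I.

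Other lists moved less evenly in T_I against N_I, where 52.4% of all tested genes fell and 17.4% rose. Of 10 monocyte genes 5 rose and 5 fell, with Ly6c2 higher (0.96, adjusted p = 0.000306) and Csf1r lower (−1.36, adjusted p = 2.97e-05). Of 7 tested megakaryocyte genes 3 fell, among them Pf4 (−0.86, adjusted p = 0.0324) and Itgb3 (−0.96, adjusted p = 1.26e-06), and 1 rose. Of 12 erythroid genes 6 fell and 2 rose, led by the haemoglobin genes Hba-a2 (−3.60, adjusted p = 1.69e-05) and Hbb-bs (−3.58, adjusted p = 1.64e-05), whose near-identical copies make the split of reads uncertain. All 20 neutrophil genes rose, with S100a9 at 5.42 (adjusted p = 7.82e-09) and S100a8 at 5.68 (adjusted p = 1.87e-08). No gene of these lists was at 0 in every library of a group. The part of any of these cells in the changes of the 10 members was not tested.

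The 10 profiles were compared with 9501 genes of at least 5 TPM by the root-mean-square difference of log2 values over the 18 libraries, each gene centred on its own mean, so that a small number means a like pattern. Closest to Siglech were Cd83 (0.296), Xlr4a (0.297) and Klra3 (0.299), and closest to Tcf4 were Zfp90, Zfp362 and Foxn3 (each 0.120 to 0.122). Irf4 was nearest to Dpp4 (0.159) and Slamf7 (0.203), Cadm1 to Axl (0.166) and Epb41l3 (0.166), Dnase1l3 to Rgl1 (0.151) and Ciita (0.180), and Ly75 to Kctd20 (0.0887), Arhgdib (0.0963) and Atg3 (0.0971). Zbtb46 was nearest to Zfp385a (0.150), Batf3 to Cmtm3 (0.209), Esam to Gna12 (0.195) and Id2 to Zfp36l2 (0.177). No member was among the 3 nearest genes of another. Between members the closest pairs were Esam and Zbtb46 (0.239), Cadm1 and Dnase1l3 (0.263) and Batf3 and Zbtb46 (0.299). Genes low in both share the tumour, the library and the sum of TPM, and the value is smaller for genes that vary little.

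In the order of the 6 group means, T_P and T_I were lowest in Siglech, Tcf4, Cadm1, Batf3, Irf4, Zbtb46 and Dnase1l3. In these 7 of the 10 genes every T_P and T_I library was below every other library, a pattern that 38.3% of all tested genes had. Ly75 had T_I and T_P highest, T_GC next and the N groups lowest, with gaps on both sides of T_GC, and 10.3% of all tested genes had every T_P and T_I library above every other library. In Esam T_I overlapped the next group up, N_GC, and T_P lay below T_I without overlap, while in Id2 every neighbour in the order overlapped. N_I had the highest mean in all of the genes but Irf4, where T_GC was highest, and Ly75. Among the N groups the libraries overlapped from group to group, except that N_I lay above N_P in Siglech and Dnase1l3 and above N_GC in Siglech and Esam. No difference between N groups was called in any member. How many of all genes had such gaps between groups was not counted.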

How the data were processed

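RNA from splenocytes was sequenced on an Illumina NovaSeq. The deposited table holds gene-level TPM for 18 libraries, and per the submitters' processing notes fastp, RSEM and GRCm39 were used, with versions and settings not given in the sources used here. RSEM shares reads among similar genes, and TPM keep no depth, so precision comes only from the spread of 3 libraries per group, taken from the titles. No label names a batch.

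From the deposited TPM, log2(TPM + 1) was computed, genes with at least 1 TPM in 3 libraries were kept (16635 of 56876), and limma 3.58.1 in R 4.3.3 was fitted with 6 group means and a mean-dependent prior variance (12 residual degrees of freedom), giving two-sided p-values, Benjamini-Hochberg adjusted over all tested genes within each comparison, and 95% intervals. The code was tested on simulated data. The 10 members and the marker lists were chosen with earlier results of these data known. All members were named; of each dendritic cell list, the genes named are the 2 with the smallest p in each direction in T_I against N_I and in T_GC against T_I, and of other lists the 2 most abundant. Each result was also computed with median-of-ratios scaling, from TPM rescaled after removal of the neutrophil list genes, from only the libraries compared, with the filter dropped or raised to 5 TPM, with 0.1 as pseudocount, and with single libraries left out. Promoter sequences are from RefSeq (GRCm38.p6); no coordinates of the files' own build were used. Python 3.11.15 with pandas 2.3.3 and matplotlib 3.10.9 made the summaries and figures.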

Additional observations from a re-analysis of the deposited data

Results flagged for a closer look

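In 9 of the 10 genes the change with the tumour differed between code GC and code I by limma's test of the difference itself, the log2 fold change of T_GC over N_GC minus that of T_I over N_I. Among the plasmacytoid genes it was 2.42 for Siglech (adjusted p = 2.97e-05) and 1.38 for Tcf4 (SE 0.20, adjusted p = 0.000121). Among the cDC1 genes it was 2.54 for Cadm1 (adjusted p = 4.85e-05), 1.53 for Batf3 (SE 0.32, adjusted p = 0.00170) and −0.91 for Ly75 (adjusted p = 3.15e-05), the only member of the 9 with a negative value. The cDC2 genes gave 1.98 for Irf4 (SE 0.48, adjusted p = 0.00476) and 0.99 for Esam (SE 0.26, adjusted p = 0.00794). Esam passed the filter only through T_GC and N libraries, so its value and its place among the 9 rest on that selection. Zbtb46 gave 1.08 (SE 0.26, adjusted p = 0.00446) and Dnase1l3 gave 2.24 (adjusted p = 7.25e-06). The median of all tested genes was 0.34, and 40.4% of them passed the same test.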

How the results depend on the processing

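No result changed sign while called. Over the 10 genes and 11 comparisons, 2579 values stayed on their side of the threshold under the alternatives, 25 were no longer called and 10 became called; those are named with their genes. The count of members called in T_GC against N_GC was 1 to 2 when each library was left out, 2 without T_GC replicate 10, and that in N_P against N_I was 0 to 1, with 1 without N_I replicate 18. Among all genes, leaving out a library gave 4476 to 5852 called in T_GC against N_GC and 22 to 250 in N_P against N_I. Median-of-ratios scaling left 7 members called in T_P against N_P and 7 in T_GC against T_P, against 10 in each. Among all genes it left 10559 called in T_P against N_P, from 11505, and 8698 in T_GC against T_P, from 10284. A filter of 5 TPM removed Esam and Zbtb46, and Esam could not be fitted from only the libraries of T_P against N_P, T_P against T_I, T_GC against T_I or T_GC against T_P.

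Among all genes, counts called moved most in the small comparisons. With only the libraries compared, limma called 3454 genes in T_GC against N_GC (5532 with all groups), 21 in N_P against N_I (95), 24 in N_GC against N_I (458), 32 in N_GC against N_P (195) and 1 in the code P interaction (3, and 1 with a pseudocount of 0.1). Leaving out a library gave 1 to 4 in T_P against T_I (2), 22 to 250 in N_P against N_I, 145 to 686 in N_GC against N_I, 69 to 334 in N_GC against N_P and 0 to 11 in the code P interaction. Median-of-ratios scaling gave 75 higher and 30 lower in N_P against N_I (52 and 43) and 40 and 174 in N_GC against N_P (71 and 124). No paired analysis was possible because no replicate number occurs in more than 1 group. Depth is unknown, so low values such as those of Esam carry an unknown counting error.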
